A study of Mus musculus with 6 samples.

Results

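The ISG15 conjugation pathway is represented here by 5 genes: Isg15, Uba7, Ube2l6, Herc6 and Usp18. They were taken by symbol from 36870 distinct symbols in the expression table, where each of them has 1 row. The set was selected on the measured RPKM values of control against Tet1/Tet2 siRNA-treated cells, so the difference of these 5 genes between the groups is described without a test. RPKM is the number of reads per kilobase of transcript, scaled to the number of mapped reads of the library, so levels of different genes are compared here per length.

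ISG15 is a ubiquitin-like protein made in response to interferons. It is joined to lysines of other proteins by an enzyme cascade like that of ubiquitin: an E1 activates it, an E2 carries it, and an E3 ligase brings it to the substrate, while a protease removes it again. The pathway is best known from antiviral defence, is also active in macrophages and other myeloid cells of the marrow, and most of its enzymes are themselves encoded by interferon-stimulated genes.

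The cells were bone marrow mesenchymal stem cells (BMMSCs) of C57BL/6 mice, isolated as the adherent fraction of flushed marrow, and the labels give their passage as p2. RNA-seq was performed on 3 control and 3 siTet1/Tet2 samples, and the comparison asks which transcripts change when Tet1 and Tet2, enzymes that oxidise 5-methylcytosine, are knocked down with siRNA. The labels and the siRNA methods of the study describe the control as non-targeting siRNA, and its RNA-seq methods call it vehicle. The sources do not say whether the samples of a group came from separate mice or cultures, so p-values below measure only the spread between these samples, which may be technical.

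The knockdown was visible for Tet2, which had 2.573, 4.081 and 3.706 RPKM in control replicates 1 to 3 and 0.358, 0.238 and 0.202 RPKM in the siRNA libraries (log2 fold change -1.80, SE 0.13, adjusted p = 2.88e-05, limma). Tet1 was too low to test, at 0.032, 0.098 and 0.05 RPKM in controls and 0.001, 0.01 and 0.001 RPKM after siRNA, where 0.001 is the lowest value the table lists. Tet3, the untargeted relative, had 7.03 RPKM in controls and 7.66 RPKM after siRNA (adjusted p = 0.508). Estimated depth was 32400000 to 38700000 reads a library. The libraries fell into their labelled groups, with Pearson correlations across genes of 0.992 to 0.997 within groups and 0.949 to 0.969 between them. The 10 most abundant rows took 10.6% to 11.8% of the summed RPKM in controls and 17.8% to 20.1% after siRNA.

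The labelled cell type was compared with marker genes. Ptprc (CD45), which marks blood cells and which BMMSCs lack by definition, was at 47.4 to 56.0 RPKM in controls and 47.2 to 59.3 RPKM after siRNA, and all 16 macrophage markers tested were detected, with a summed level of 8657 to 11556 RPKM in controls. Stromal markers were present as well, summing to 1664 to 2206 RPKM in controls, with Sparc at 557.0, Col1a1 at 488.4 and Col1a2 at 436.9 RPKM, while 3 of the 16 listed, Thy1, Lum and Lepr, were too low to test. The libraries therefore held transcripts of both kinds, and the blood cell markers go against a purely mesenchymal label. In bulk RNA, fewer cells of a type and less RNA per cell cannot be told apart.

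The 5 genes are spread over 4 chromosomes (GRCm38, GENCODE annotation). Isg15 lies on the minus strand at chr4:156199424-156200818 and has 1 annotated transcript of 756 bases in 2 exons. Uba7 lies on the plus strand at chr9:107975505-107984060, and its longest transcript has 22 exons. Ube2l6 lies on the plus strand at chr2:84798828-84810335, and its longest transcript has 4 exons. Herc6 and Usp18 share chromosome 6, at chr6:57581000-57664632 and chr6:121245906-121270917, both on the plus strand, with 23 and 11 exons in the longest transcripts. Annotated neighbours overlap 3 of them: Gm20661 overlaps Uba7 on the same strand, Gm45193 on the same strand and Gm19244 on the other overlap Herc6, and Gm44148 overlaps Usp18 on the other strand. None of these neighbours has a row in the table, and whether counting used the strand is not given in the sources used here, so reads of those overlaps cannot be assigned to one gene.

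Interferon-stimulated genes commonly carry an interferon-stimulated response element (ISRE) near their start, a site bound by factors of the IRF family. The RefSeq promoter table (GRCm38.p6; 250 bases before to 50 after the start) held windows for 4 of the 5 genes, all but Usp18. Both strands were searched for a long form, GAAA followed after any 2 bases by GAAA again, and for a short form, AANNGAAA, which the long form contains. Isg15 held 3 overlapping matches of the long form, which together form a run of 22 bases from 78 to 57 bases upstream of the start, and 1 further match of the short form on the other strand. Uba7 held 1 match of the short form on the reverse strand, from 27 to 20 bases upstream of the RefSeq start, and none of the long form. That start and the match both lie inside the GENCODE span of Uba7 given above. Ube2l6 and Herc6 held neither form in these windows. Of 32851 windows in the table, 3.44% held the long form and 23.9% the short form, and a match is a string of letters, not a measured binding site. The windows of Isg15 (chr4:156200769-156201068, minus strand) and Uba7 (chr9:107975317-107975616, plus strand) are printed because they hold the matches and because these genes are the modifier and the E1 of the pathway, with the capitals marking the matched run.
Isg15: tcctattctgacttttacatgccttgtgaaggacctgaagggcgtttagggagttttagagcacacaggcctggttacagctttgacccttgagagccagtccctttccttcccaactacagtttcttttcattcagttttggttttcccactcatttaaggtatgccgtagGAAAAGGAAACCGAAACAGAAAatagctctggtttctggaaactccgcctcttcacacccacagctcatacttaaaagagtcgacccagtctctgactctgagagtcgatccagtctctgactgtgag
Uba7: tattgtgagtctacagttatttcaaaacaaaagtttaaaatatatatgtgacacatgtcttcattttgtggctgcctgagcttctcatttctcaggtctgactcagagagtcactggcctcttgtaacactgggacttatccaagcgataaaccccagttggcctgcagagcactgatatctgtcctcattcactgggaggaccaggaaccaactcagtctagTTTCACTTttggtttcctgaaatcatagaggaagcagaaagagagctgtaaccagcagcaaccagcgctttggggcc

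Isg15, the modifier, had 120.1, 119.1 and 114.2 RPKM in control replicates 1 to 3. After Tet1/Tet2 siRNA it had 3.74, 6.83 and 3.76 RPKM. The groups were far apart, with the highest siRNA library well below the lowest control. The mean went from 117.8 ± 3.15 to 4.78 ± 1.77 RPKM (SD, n = 3 each), which left 4.06% of the control level, a 24.7-fold difference. On the log2(RPKM + 1) scale the difference was -4.40, the 5th lowest of 13266 genes.

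Uba7, the E1 that activates ISG15 with ATP and passes it to the E2, had 16.2, 18.3 and 15.8 RPKM in controls and 10.5, 11.2 and 9.93 RPKM after siRNA. The groups did not overlap, but they were closest for this gene. Its mean went from 16.8 ± 1.31 to 10.6 ± 0.648 RPKM (SD, n = 3 each), so 63.0% was left, a 1.59-fold difference (log2 -0.62, rank 1434 of 13266).

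Ube2l6, the E2 also known as UbcH8, had 91.1, 85.5 and 74.0 RPKM in controls. After siRNA it had 21.1, 25.4 and 20.7 RPKM. Every siRNA library was below every control. The mean went from 83.5 ± 8.71 to 22.4 ± 2.58 RPKM (SD, n = 3 each), and 26.8% was left, a 3.73-fold difference (log2 -1.85).

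Herc6, a HECT-type ligase and the main E3 for ISG15 in the mouse, had 16.2, 19.9 and 19.8 RPKM in controls and 3.999, 4.04 and 4.37 RPKM after siRNA. The siRNA libraries were nearly level with each other and did not overlap the controls. The mean went from 18.6 ± 2.07 to 4.13 ± 0.201 RPKM (SD, n = 3 each), and 22.2% was left, a 4.51-fold difference (log2 -1.93).

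Usp18, the protease that removes ISG15 from substrates and that also binds the type I interferon receptor and dampens its signalling, had 49.4, 53.2 and 45.3 RPKM in controls. After siRNA it had 0.805, 2.29 and 1.62 RPKM. The siRNA values were all low but differed 2.84-fold among themselves. The mean went from 49.3 ± 3.93 to 1.57 ± 0.742 RPKM (SD, n = 3 each), and 3.19% was left, a 31.4-fold difference (log2 -4.33, the 7th lowest of 13266 genes).

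**Figure D1:**
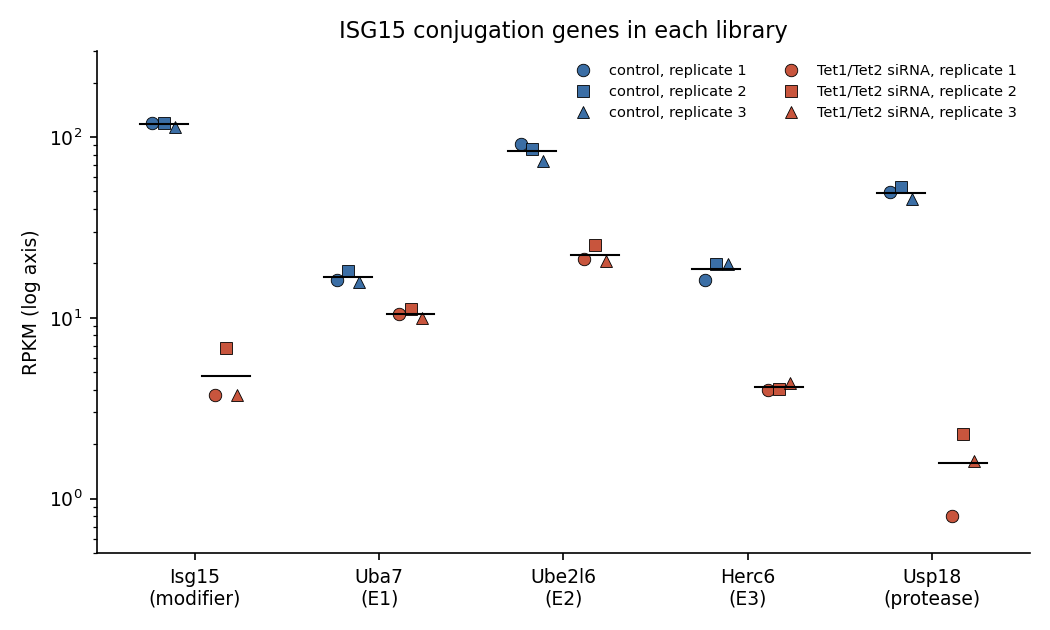
RPKM (log axis) of the 5 ISG15 conjugation genes in each of the 3 control and 3 Tet1/Tet2 siRNA libraries, with a symbol per replicate and a line at the group mean. The siRNA libraries lie below the controls for every gene, from 0.805 to 2.29 against 45.3 to 53.2 RPKM for Usp18 and from 9.93 to 11.2 against 15.8 to 18.3 RPKM for Uba7.

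In 5 of the 5 genes the siRNA values lay below all control values, and such non-overlap toward lower values was found in 35.9% of all 13266 genes tested. A difference over 2-fold was present in 4 of the 5, all but Uba7, against 5.63% of all genes called lower with an unadjusted p under 0.05 and over 2-fold. The set was chosen for this contrast, so nothing is read from these counts. Its median log2 difference was -1.93, beside -0.09 over all genes.

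The genes separated by the level left after siRNA. Uba7 kept 59.2% to 66.9% of its control mean over the 3 siRNA libraries, Ube2l6 24.8% to 30.3% and Herc6 21.5% to 23.4%, and none of these ranges overlapped another. Isg15, at 3.18% to 5.80%, and Usp18, at 1.63% to 4.64%, overlapped each other and lay below the remaining 3. The modifier and its protease thus had the lowest remaining shares, and the E1 the highest.

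**Figure D2:**
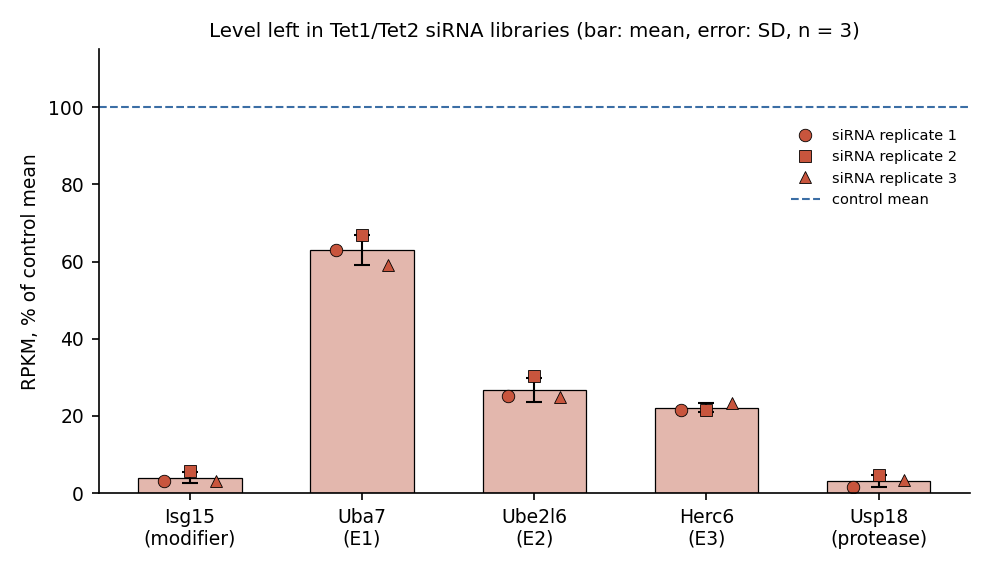
Level of each gene in the 3 Tet1/Tet2 siRNA libraries in percent of its own control mean, with bars at the mean, error bars of 1 SD (n = 3) and a symbol per replicate. Isg15 at 4.06% and Usp18 at 3.19% stand lowest, Uba7 at 63.0% stands highest.

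The order of levels changed between the groups. In controls Isg15 was highest, followed by Ube2l6 and Usp18, whose ranges did not touch their neighbours, and then Herc6 and Uba7, which overlapped (16.2 to 19.9 and 15.8 to 18.3 RPKM). After siRNA Ube2l6 was highest and Uba7 second. Isg15 and Herc6 then overlapped (3.74 to 6.83 and 3.999 to 4.37 RPKM), and Usp18 was lowest in every library. The sum of the 5 genes was 269.2 to 295.9 RPKM in controls and 40.2 to 49.7 RPKM after siRNA.

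Transcript ratios within a library do not depend on its scaling. The modifier was 6.52 to 7.41 times its E1 in controls and 0.355 to 0.608 times after siRNA. Against the E2, Isg15 was 1.32 to 1.54 times Ube2l6 in controls and 0.177 to 0.269 times after siRNA, and against the E3 it was 5.77 to 7.39 times Herc6 and then 0.862 to 1.69 times. In each of these ratios the groups did not overlap. The ratio of Isg15 to its protease behaved otherwise: Isg15 over Usp18 was 2.24 to 2.52 in controls and 2.32 to 4.65 after siRNA, and these ranges overlap. Ube2l6 over Uba7 went from 4.67 to 5.62 down to 2.00 to 2.26, and Herc6 over Uba7 from 1.00 to 1.25 down to 0.360 to 0.440. These ratios describe transcripts, and no conjugate or protein was measured.

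**Figure D3:**
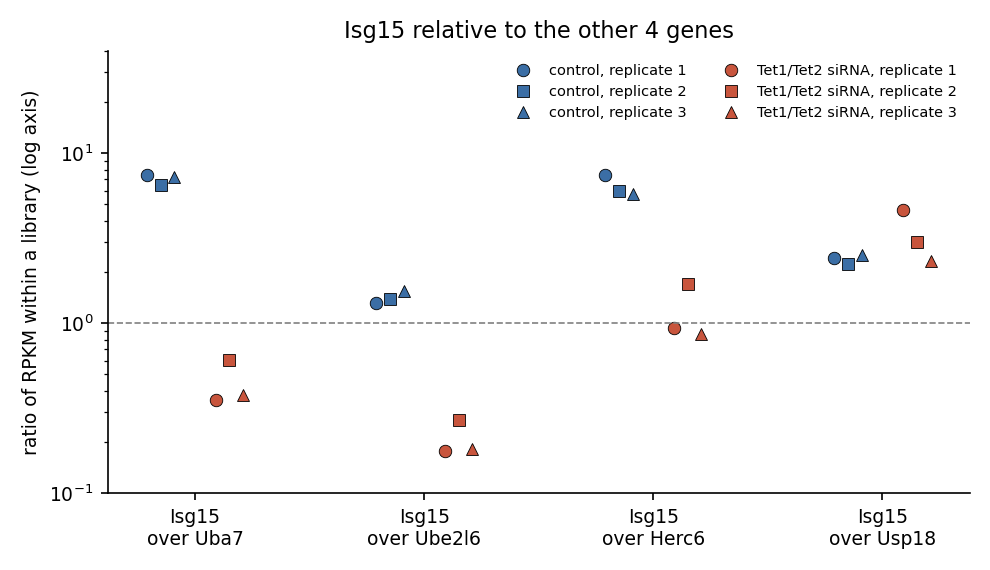
Ratio of Isg15 RPKM to that of each of the other 4 genes (log axis) in each control and Tet1/Tet2 siRNA library, with the dashed line at equal levels. The ratio to Uba7 lies between 6.52 and 7.41 in controls and between 0.355 and 0.608 after siRNA, whereas the ratio to Usp18 overlaps between the groups (2.24 to 2.52 and 2.32 to 4.65).

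The spread between replicates was uneven. Isg15 had a coefficient of variation of 2.67% in controls and 37.2% after siRNA, and Usp18 of 7.97% and 47.2%, while Uba7 (7.80% and 6.13%), Ube2l6 (10.4% and 11.5%) and Herc6 (11.1% and 4.87%) varied to a similar or lower degree after siRNA. Read numbers were estimated from RPKM, depth and transcript length. In the siRNA libraries Usp18 had about 55, 157 and 102 reads and Isg15 about 109, 200 and 101 reads. Both had about 2601 to 3404 reads in controls. Relative counting error is larger at the lower read numbers, and its part in the spread was not tested. The siRNA library of replicate 2 was highest for 4 of the 5 genes, all but Herc6, whose highest siRNA library was replicate 3, and 28.5% of all genes tested were highest in siRNA replicate 2. Control replicate 3 was lowest for 4 of the 5, all but Herc6, against 37.6% of all genes tested.

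Of 13 other genes reported to act with ISG15, 9 passed an adjusted p under 0.05, in both directions. This list holds further ligases (Trim25, Arih1), E2 enzymes that carry or receive ISG15, ubiquitin proteases reported to react with ISG15, and Itgal and Itgb2, the chains of LFA-1, the receptor for secreted ISG15. None of the 13 was called over 2-fold on the log2(RPKM + 1) scale. At an adjusted p under 0.05 (limma), 6 were lower and 3 higher, beside 29.8% of all genes lower and 14.7% higher. Over all genes this split was 3952 lower and 1953 higher, but 3052 and 2738 with median-ratio scaling and 2635 and 3598 after quantile normalisation, and the genes called over 2-fold, 747 lower and 126 higher, became 577 and 207 after quantile normalisation. The list's median log2 change was 0.00094.

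Trim25, a ubiquitin ligase of the RIG-I pathway that can also attach ISG15, fell from 36.7 to 26.3 RPKM (log2 fold change -0.46, SE 0.07, adjusted p = 0.00107). The E2 genes Ube2e2 (8.73 to 5.59 RPKM, log2 -0.56) and Ube2e1 (34.8 to 25.6 RPKM, log2 -0.42) fell as well, with adjusted p = 0.000898 and 0.00165. Of the proteases, Usp16, which deubiquitinates histone H2A, fell from 25.2 to 16.4 RPKM (log2 -0.58, SE 0.10, adjusted p = 0.00183), and Usp14, a protease bound to the proteasome, from 54.8 to 43.2 RPKM (log2 -0.33, adjusted p = 0.0027). Usp13 was at 0.259 and 0.108 RPKM, 2.40-fold apart by these means but under 2-fold after the pseudocount, and its call (adjusted p = 0.0372) was lost with the replicate block (adjusted p = 0.0557). The LFA-1 chains rose: Itgal from 26.1 ± 0.465 to 48.2 ± 0.678 RPKM (SD, n = 3 each, log2 0.86, SE 0.05, adjusted p = 1.31e-05) and Itgb2 from 208.3 to 287.4 RPKM (log2 0.46, adjusted p = 0.000467). Of 16 macrophage markers given below, 9 were also higher and 2 lower at an adjusted p under 0.05 (14.7% and 29.8% of all genes). Their part in the rise of the LFA-1 chains was not tested. Usp2 rose from 3.54 to 5.36 RPKM (adjusted p = 0.00206). The remaining 4, Arih1, Skp2, Usp5 and Usp21, did not pass. Apart from Itgal, which had the lowest p, and Usp16, the genes of this list are named here after their values were seen.

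The relatives of the 5 genes in the ubiquitin system were compared class by class, leaving the 5 themselves out. Of 9 other E1 genes tested, none was called over 2-fold, 6 were lower and 1 higher at an adjusted p under 0.05 (29.8% and 14.7% of all genes), and the median log2 change was -0.21. Nae1, a subunit of the E1 for NEDD8, had the lowest p and fell from 21.7 to 15.5 RPKM (log2 -0.46, adjusted p = 0.000429). Uba1, the main ubiquitin E1, had 128.8 RPKM in controls and 113.9 RPKM after siRNA, a 1.13-fold difference (adjusted p = 0.0276) whose call was lost with median-ratio scaling (adjusted p = 0.342). Uba7 amounted to 12.2% to 14.3% of Uba1 in controls and to 8.68% to 9.66% after siRNA, and these ranges do not overlap.

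Of 13 other ubiquitin-like modifiers tested, none was called over 2-fold, 3 were lower and 2 higher at an adjusted p under 0.05, near the 29.8% and 14.7% of all genes (median log2 -0.10). Urm1, a modifier that also carries sulfur for tRNA, had the lowest p (17.9 to 11.4 RPKM, log2 -0.61, adjusted p = 0.000457). Ubb, a polyubiquitin gene, had 525.3 RPKM in controls and 433.1 RPKM after siRNA (log2 -0.27, adjusted p = 0.104, or 0.0327 with the replicate block). Isg15 transcript therefore went from 20.3% to 26.5% of Ubb in controls to 0.867% to 1.51% after siRNA.

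Among 30 other E2 genes tested, none was called over 2-fold, 12 were lower and 3 higher at an adjusted p under 0.05, beside 29.8% and 14.7% of all genes (median log2 -0.14). Ube2w, which attaches ubiquitin to protein N-termini, had the lowest p (23.5 to 15.7 RPKM, log2 -0.55, adjusted p = 0.000315). Ube2l3 (UbcH7), the nearest relative of Ube2l6, moved in the other direction, from 49.2 to 59.5 RPKM (log2 0.27, adjusted p = 0.00996, or 0.0542 without a filter on low values). The ratio of Ube2l6 to Ube2l3 went from 1.63 to 1.78 in controls to 0.346 to 0.432 after siRNA.

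Among 20 other HECT ligases tested, 1 was called lower and none higher, near the 5.63% and 0.95% of all genes, with 5 lower and 3 higher at an adjusted p under 0.05, near 29.8% and 14.7% (median log2 -0.08). The 1 called was Nedd4, a ligase that acts on membrane proteins and receptors, from 96.0 to 21.5 RPKM (log2 -2.15, SE 0.21, adjusted p = 0.000111). Herc3, another small HERC protein, had 11.8 and 12.0 RPKM (log2 0.03, adjusted p = 0.811; -0.03 after every library was rescaled to equal sums). The ratio of Herc6 to Herc3 went from 1.45 to 1.81 in controls to 0.331 to 0.354 after siRNA. Of 42 other ubiquitin-specific proteases tested, none was called over 2-fold, 14 were lower and 3 higher at an adjusted p under 0.05, beside 29.8% and 14.7% of all genes (median log2 -0.15), and Usp16, given above, had the lowest p.

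**Figure D4:**
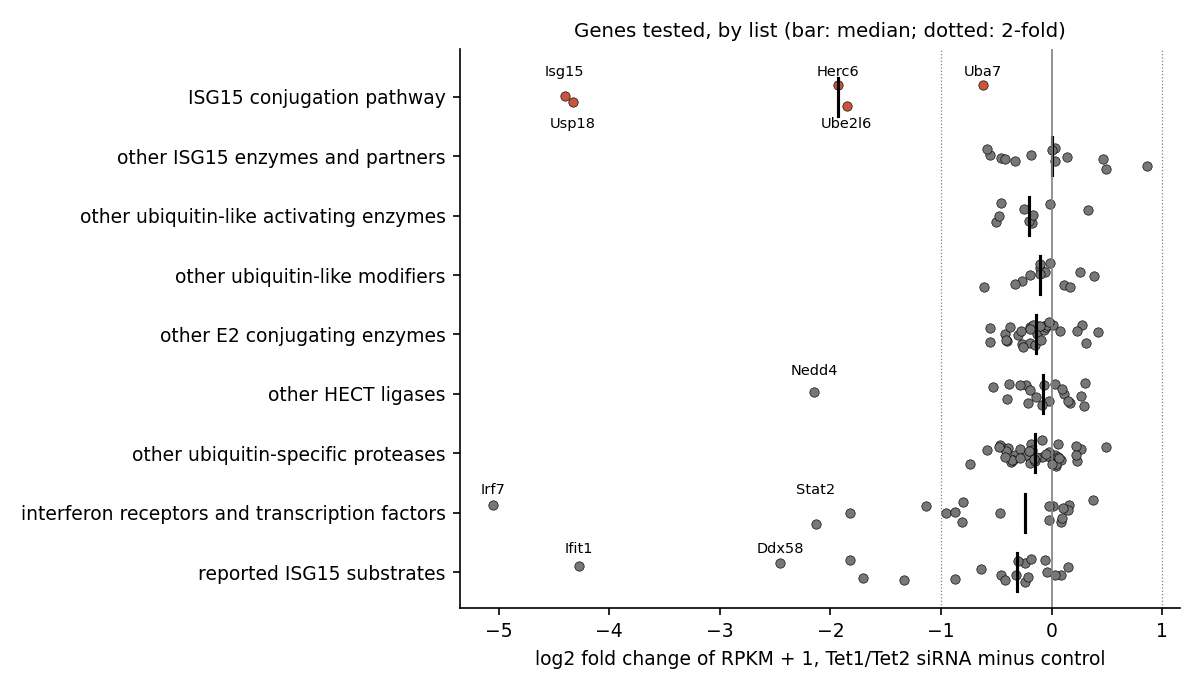
Log2 fold change of RPKM + 1 (Tet1/Tet2 siRNA minus control) for each gene tested in the ISG15 conjugation pathway and in 8 comparison lists, with a bar at each list's median and dotted lines at 2-fold. The pathway lies between -4.40 and -0.62 with its median at -1.93, and the medians of the other lists lie between -0.31 and 0.00094.

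Upstream of these genes stand the interferons, their receptors and the STAT and IRF factors. None of the 11 interferon ligand genes listed reached the filter of a mean of 0.1 RPKM, and 10 of them stayed under 0.1 RPKM in every library. Ifnb1 reached the highest single value, 0.32 RPKM in control replicate 3, and had 0.001 and 0.078 RPKM in the other controls and 0.034, 0.001 and 0.001 RPKM after siRNA. At this level no difference was detectable.

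Of 18 receptor and transcription factor genes tested, 4 were called over 2-fold lower and none higher, beside 5.63% and 0.95% of all genes. At an adjusted p under 0.05, 9 were lower and 1 higher, beside 29.8% and 14.7% (median log2 -0.25). Irf7, the factor that amplifies type I interferon responses, fell from 271.9 ± 28.1 to 7.81 ± 4.09 RPKM (log2 -5.05, SE 0.28, adjusted p = 7.20e-06). Stat2, which carries signals from the type I interferon receptor to the nucleus, fell from 83.5 ± 5.39 to 18.3 ± 1.08 RPKM (log2 -2.13, SE 0.07, adjusted p = 6.67e-07). Irf9, its DNA-binding partner, fell from 35.5 ± 3.95 to 15.5 ± 1.15 RPKM (log2 -1.14, SE 0.09, adjusted p = 4.81e-05; SD, n = 3 each). The receptor chain gene Ifnar1 had the highest log2 value of the list, 0.37.

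Proteins reported to be modified by ISG15 were followed as a further list, of which 20 genes were tested. Of these, 5 were called over 2-fold lower and none higher, beside 5.63% and 0.95% of all genes. At an adjusted p under 0.05, 13 were lower and none higher, beside 29.8% and 14.7%, and 7 did not pass (median log2 -0.31). Among those called were Ifit1, which binds foreign RNA (37.4 to 1.01 RPKM, log2 -4.27, adjusted p = 6.67e-07), Ddx58, the RNA sensor RIG-I (40.2 to 6.50 RPKM, log2 -2.46, adjusted p = 3.63e-07), and Eif2ak2, the kinase PKR (41.9 to 12.1 RPKM, log2 -1.71, adjusted p = 9.20e-06). Ifit1, Ddx58 and Eif2ak2 are themselves interferon-stimulated genes. Ifit1 and Irf7 were also highest in siRNA replicate 2 among the siRNA libraries, with 2.29-fold and 2.87-fold between the highest and lowest, as Isg15 (1.83-fold) and Usp18 were. Stat2 was highest there too (1.11-fold), whereas Ddx58 was highest in siRNA replicate 3 (1.02-fold) and Irf9 in siRNA replicate 1 (1.16-fold).

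The genes whose 6-library profile lay nearest to the mean profile of the 5 were sought among 11171 genes, with each gene in percent of its own control mean. The mean profile was 99.0%, 105.4% and 95.6% in controls and 22.9%, 25.9% and 22.8% after siRNA. The nearest was Msx2, a homeobox factor of skeletal development, at a root mean square difference of 0.951 percentage points (1.20 to 0.290 RPKM). Tspan6, a tetraspanin, followed at 1.84 points (7.80 to 1.81 RPKM), then Tap1, the peptide transporter of antigen presentation, at 2.12 points (59.1 to 14.3 RPKM), Cdkn1c, the cell cycle inhibitor p57, at 3.12 points (32.6 to 7.31 RPKM), and Irgm2, an interferon-inducible GTPase, at 3.26 points (23.4 to 6.06 RPKM). The mean profile lies between members that differ widely, so the nearest gene to each single member was looked up as well, after the values were seen. Isg15 was nearest to Tgtp2, an interferon-inducible GTPase, at 1.66 points, Ube2l6 to Fcgr1, a high-affinity IgG receptor, at 1.61 points, Herc6 to Srgap1 at 2.06 points, Usp18 to I830012O16Rik at 2.53 points, and Uba7 to Ccdc59 at 2.71 points.

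Cell type markers also differed between the groups, some lower and some higher after siRNA. Of 16 macrophage markers tested, 1 was called lower (Fcgr1, 109.1 to 27.8 RPKM) and 3 higher, beside 5.63% and 0.95% of all genes. The 3 were Mertk (50.7 to 102.3 RPKM), Tyrobp (465.6 to 1164 RPKM) and Lyz2 (4439 to 11321 RPKM). At an adjusted p under 0.05, 2 markers were lower and 9 higher, beside 29.8% and 14.7% of all genes. The summed level of the macrophage markers was 8657 to 11556 RPKM in controls and 17181 to 20266 RPKM after siRNA. Lyz2 was the largest part of that sum in both groups, and it lost its call after quantile normalisation (log2 0.06, adjusted p = 0.459). That scaling gives equal ranks equal values in every library, so it can hide a change in a gene this abundant. Lyz2 passed an adjusted p under 0.05 in the other 15 alternatives. Mertk, at log2 1.00, fell under 2-fold after rescaling to equal sums (0.94) and without control replicate 1 (0.96), siRNA replicate 1 (0.99) or siRNA replicate 3 (0.98). Ptprc, Spi1, C1qa, C1qb and C1qc overlapped between the groups, and Aif1, like Fcgr1, was lower after siRNA (51.8 to 36.1 RPKM). Of 13 stromal markers tested, 9 were called lower and 1 higher, beside 5.63% and 0.95% of all genes. The summed level of the stromal markers was 1664 to 2206 RPKM in controls and 286.2 to 513.8 RPKM after siRNA. Pdgfra went from 9.92 to 0.944 RPKM, Ly6a from 152.2 to 16.4 RPKM and Cxcl12 from 38.9 to 3.99 RPKM, while Vcam1 rose from 16.9 to 55.9 RPKM. The part of these markers in the level of the ISG15 genes was not tested.

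The highest value among 5 plasmacytoid and dendritic cell markers was 0.549 RPKM, and 3 of them stayed under 0.1 RPKM in every library, as did all 8 lymphocyte markers. All 4 erythroid markers were too low to test. Of 5 neutrophil markers only S100a8 was tested, and it rose from 1.95 ± 0.233 to 12.7 ± 3.44 RPKM (SD, n = 3 each, log2 2.18), above Uba7 in 2 of the 3 siRNA libraries. None of the 4 endothelial markers was called over 2-fold. At an adjusted p under 0.05, 2 were lower and 1 higher, beside 29.8% and 14.7% of all genes. By means, Kdr (1.58 to 0.604 RPKM) and Emcn (0.380 to 0.152 RPKM) were over 2-fold lower. Pecam1 (0.175 to 0.377 RPKM) was over 2-fold higher by means, and these genes were under 2-fold after the pseudocount. The summed level of the 4 was 2.41 to 2.88 RPKM in controls and 1.35 to 1.46 RPKM after siRNA.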

How the data were processed

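RNA-seq was measured in 6 libraries (3 a group), prepared with a NEBNext Ultra kit and sequenced as paired ends on an Illumina HiSeq instrument. The authors mapped trimmed reads to GRCm38 and estimated abundance with DNASTAR Lasergene 15.0 (version as in the submitters' processing notes), and the deposited values are RPKM per gene, with 0.001 as the lowest value, although the methods write FPKM. A deposited column of p-values from the authors' comparison was not used. The table has 36915 rows, and 37 symbols occur in more than 1 row, where the most abundant row was used.

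The 13266 genes that averaged 0.1 RPKM or more were fitted on log2(RPKM + 1) with limma 3.58.1 (lmFit, eBayes with trend, R 4.3.3), two-sided, with Benjamini-Hochberg adjustment over all of them. Fold changes on this scale understate those of low genes. A gene was called with an unadjusted p under 0.05 and a change over 2-fold, the thresholds of the study, and the adjusted p is given beside it. Group levels are means of RPKM. The fit was tested on simulated data. Tables and figures were made with Python 3.11.15. The 5 genes and all lists were chosen with earlier results of these data known. The genes named are the 5, Tet1 to Tet3, in each list at most 4 called genes of lowest p (or the one of lowest p), the closest relative of each of the 5, and the 5 nearest profiles. Some genes that the rule would name are not reported here, and genes named beyond it were chosen after their values were seen.

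Depth was estimated from the steps of low RPKM values with GENCODE M21 lengths. Between 51.6% and 55.5% of values lay within 0.1 of a whole read, against 20% by chance at a fixed depth, so read numbers are approximate and no count test was run. Deviations of samples with the same replicate number correlated positively (r = 0.149, 0.117 and 0.462 across genes), and the replicate block was computed as an alternative. That pairing rests on these values and not on the labels, and only the last of them was the highest for its samples. Control replicate 1 correlated more with siRNA replicate 2 (r = 0.332), and control replicate 2 more with siRNA replicate 1 (r = 0.205). The block is therefore not an established pairing. The 16 alternatives covered pseudocounts, filters, scalings, the block, eBayes without trend, repeated symbols and leaving out each library.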

Additional observations from a re-analysis of the deposited data

How the results depend on the processing

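Under the 16 alternatives the 5 genes kept their direction, and 4 of them were over 2-fold lower in each. Their median log2 difference ranged from -2.16 to -1.78, that of Isg15 from -4.68 to -4.28, Uba7 from -0.68 to -0.47, Ube2l6 from -1.94 to -1.75, Herc6 from -2.16 to -1.78 and Usp18 from -5.08 to -4.10. Among the other ISG15 enzymes and partners, 1 gene (Usp13, log2 -1.24) was called lower with a pseudocount of 0.01, where none was otherwise. That pseudocount called 1590 of all genes lower and 368 higher, and a pseudocount of 0.1 called 1438 and 290, against 747 and 126. With either of these pseudocounts, 6 of the 18 interferon receptor and signalling genes were called lower, against 4. Rescaling to equal sums called 5 of those 18 lower, and 795 of all genes. Quantile normalisation moved the median log2 change of all genes from -0.09 to 0.06 and gave 2635 genes lower and 3598 higher at an adjusted p under 0.05, median-ratio scaling gave 3052 and 2738, and no filter on low values gave 2514 and 1230, against 3952 and 1953. Quantile normalisation also called 577 lower and 207 higher over 2-fold.

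Herc3 changed sign around 0, at -0.028 after every library was rescaled to equal sums, -0.021 without control replicate 1 and -0.015 without control replicate 2, and ranged from -0.021 to 0.13 over the fits that left out 1 library. The call of Uba1 was lost with median-ratio scaling (adjusted p = 0.342), with quantile normalisation (0.127) and without control replicate 1 or 2 or any one siRNA replicate (0.053 to 0.112). Ubb passed after rescaling to equal sums (adjusted p = 0.0132), after quantile normalisation (0.0212) and without control replicate 3 (0.00133). Ube2l3 did not pass without a filter (adjusted p = 0.0542), and Usp13 lost its call in 11 of 15 alternatives (adjusted p up to 0.17). The nearest profiles shared 3 of 5 genes with those named after quantile normalisation and without control replicate 1, control replicate 3 or siRNA replicate 2. The replicate block changed the calls of Ubb (adjusted p = 0.0327) and Usp13 (adjusted p = 0.0557) and no other call of a named gene, and gave 4468 genes lower and 2248 higher. For these alternatives the cause was not tested. Depth limits the precision of Usp18 and Isg15 after siRNA and of the interferon ligands. Intervals for counting error could not be given without read counts.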
